A study of Mus musculus with 6 samples.

Results

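The genes described here are 45 genes of the endoplasmic reticulum (ER) folding and early secretory pathway, chosen by symbol and all 45 found among the 55364 genes listed. They were sorted by role into 7 groups: ER chaperones and their cochaperones, disulfide and prolyl isomerases, the sensors and the transcription factor of the unfolded protein response (UPR), ER-associated degradation, the translocon with the signal peptidase, the COPII coat with its export factors, and the receptors that carry or retrieve cargo. The groups compared were primary lung fibroblasts (LFs) of wild type mice (wt) and of Tks5+/- mice, which carry 1 disrupted copy of Sh3pxd2a, the gene of the podosome scaffold TKS5, 3 libraries each. The study's methods give littermates of the C57Bl6/J background, LFs isolated from adult mice and used after few passages, and a constitutive allele, so that every cell of the animal carries it. The labels call the second genotype a TKS5 knockout, and the study's name Tks5+/- is used here. All 6 cultures were kept in serum-free medium with 10 ng/ml TGFβ1 for 24 h, which turns fibroblasts into matrix-secreting myofibroblasts, so no library without TGFβ is compared. RNA was read by Quant-Seq, in which cDNA synthesis starts at the poly(A) tail and each transcript gives reads from its 3′ end.

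Proteins bound for the matrix, collagen above all, enter the ER through the Sec61 channel, lose their signal peptide to the signal peptidase and are folded by chaperones and isomerases. Folded cargo leaves in COPII carriers, and ER residents that escape are brought back by KDEL receptors. When unfolded protein builds up, the sensors IRE1 (Ern1), PERK (Eif2ak3) and ATF6 raise the transcription of chaperones and of degradation factors, in part through XBP1, which makes this pathway a standing demand of matrix-producing fibroblasts.

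The libraries held between 1344507 and 2369882 counts. Values are CPM, counts relative to the library size after TMM scaling, and fold changes are log2 values of the libraries labelled Tks5+/- over wt from edgeR's quasi-likelihood F test, with p adjusted over all 10346 genes tested. A gene was called where the adjusted p was under 0.05 and the fold change at least 1.2 in either direction. Sh3pxd2a itself had 132, 102 and 105 CPM in the wt libraries 1, 2 and 3 and 131, 151 and 133 in the Tks5+/- libraries 1, 2 and 3, a log2 fold change of 0.29 ± 0.20 (SE, adjusted p = 0.249). It was called higher after correction for transcript length (1.00, adjusted p = 0.000514) and for length and GC content (1.18, adjusted p = 0.000122), and its sign turned with library totals alone as scaling (-0.13). The study reports lowered Tks5 mRNA in Tks5+/- LFs by Q-RT-PCR, and these reads show no such fall. Its counted end lies downstream of the targeted exon, and which of the study's disrupted alleles these LFs carried is not stated. Whether 3′ reads can show the loss was not tested, so the genotype is not checked here and each direction below rests on the labels. The study describes its samples as biologically independent, and neither it nor the labels say whether these replicates were separate cultures or separate animals, so that p-values measure the spread between these 6 libraries.

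The cultures carried fibroblast markers. The summed level of 9 fibroblast markers was 3876 to 5254 CPM in wt and 5598 to 8715 CPM in Tks5+/- libraries, and 4 of the 9 were called higher and 1 lower. In the same libraries 11 macrophage markers summed to 314 to 1852 CPM in wt, the highest value in wt replicate 3, and to 117 to 133 CPM in Tks5+/- libraries, where Adgre1, Ptprc and Siglecf were at 0, and 5 of the 8 tested were called lower. Endothelial markers summed to 109 to 131 CPM against 45.6 to 60.4 CPM, with Pecam1 and Tek at 0 in the Tks5+/- libraries and 3 of 4 tested markers called lower. Mesothelial markers summed to 20.9 to 25.1 CPM against 3.58 to 12.1 CPM, and the 1 tested was called lower. Smooth muscle and pericyte markers summed to 348 to 387 CPM against 482 to 614 CPM, most of it from Cnn1, the only one of 5 tested that was called higher (log2 fold change 1.00), while Myh11 (-1.27), Des (-1.45) and Cspg4 (-3.55) were called lower. The epithelial sums overlapped, at 24.1 to 48.6 CPM and 29.7 to 60.3 CPM, but their markers went opposite ways. Ager was called higher, at 9.63 to 12.98 CPM in wt and 29.2 to 60.3 CPM in Tks5+/- libraries, and made up nearly all of the Tks5+/- sums. Krt18 was called lower, at 5.79 to 11.5 CPM in wt and 0 to 0.512 CPM in Tks5+/- libraries, Cdh1 (4.28 to 21.5 CPM in wt), Epcam and Krt8 were at 0 in the Tks5+/- libraries, and Sftpc, Sftpb and Scgb1a1 were at 0 in all 6 libraries. The B and plasma cell sums also overlapped, at 63.1 to 73.4 CPM and 46.1 to 70.2 CPM, and of this ER-rich cell type the markers Jchain, Ighm, Cd79a and Ms4a1 were at 0 in all 6 libraries. The part of these cell types in the results below was not tested. Without wt replicate 3, 9 members were called lower (background, 18.0%) and 15 higher (background, 20.2%). That refit does not remove the difference in markers, since macrophage markers summed to 348 and 314 CPM in wt replicates 1 and 2. In bulk RNA, fewer cells of a type and less RNA per cell cannot be told apart.

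The pathway did not move as 1 block. Of the 45 members, 44 passed the filter on low counts, and 26 of these were called, 10 lower (background over all genes tested, 22.1%) and 16 higher (background, 22.8%) in Tks5+/- LFs. The share of members called lower, 22.7%, was close to the background, and the share called higher was 36.4%. Of the 16 rises 7 lay among the 10 translocon and signal peptidase genes, with fold changes from 2.39-fold (Ssr4) to 5.21-fold (Sec61g). With the counts of near-identical copies added, an alternative chosen after seeing the data, Sec61g was at 3.51-fold. Of 11 chaperones 4 were called lower, Hyou1 2.28-fold and Canx 2.05-fold, and 2 higher. The median log2 fold change over the 44 members was 0.18, beside -0.046 over all genes tested. The member left out was Pdia4, a disulfide isomerase, with 4, 6, 8, 5, 14 and 5 counts in the 6 libraries in the order wt then Tks5+/-. CPM values of the genotypes did not overlap for 12 members on the lower side (background, 27.6%) and 18 on the higher side (background, 26.1%). Two-sided exact permutation tests on CPM values gave p = 0.1 for 25 of the 26 called members, the smallest p that 3 libraries against 3 allow, and p = 0.2 for Dnajb9.

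**Figure D1:**
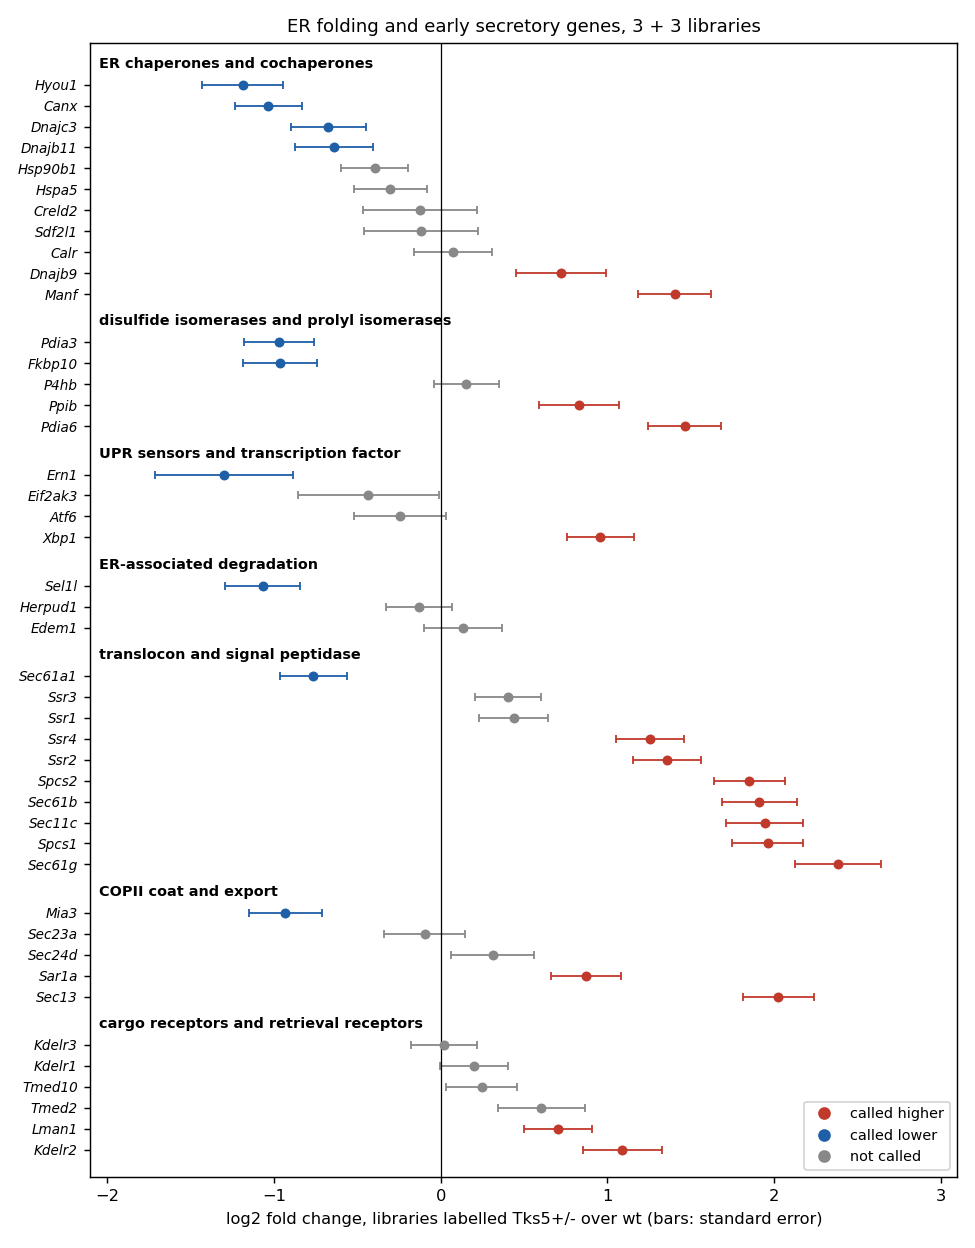
Log2 fold change of the 44 tested members (horizontal axis, libraries labelled Tks5+/- over wt, n = 3 each) by role group, with standard errors as bars and calls in colour. The translocon and signal peptidase rows lie to the right except Sec61a1, and the chaperone rows run from -1.19 (Hyou1) to 1.40 (Manf).

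Among the translocon and signal peptidase genes, the small subunits rose and the pore subunit fell. Sec61a1, the channel-forming subunit of the Sec61 complex (ENSMUSG00000030082, chromosome 6 of GRCm38, 88503579 to 88518905, reverse strand), had 515, 589.7 and 689 CPM in the wt libraries 1, 2 and 3 and 357, 328 and 374 in the Tks5+/- libraries 1, 2 and 3. It was called lower, with a log2 fold change of -0.76 ± 0.20 (SE, adjusted p = 0.00379). Sec61b (ENSMUSG00000053317, chromosome 4 of GRCm38, 47474658 to 47483242, forward strand), the tail-anchored beta subunit, had 145, 114 and 97.9 CPM in wt and 385, 564 and 389 in Tks5+/- LFs. Every Tks5+/- value was above every wt value, and the log2 fold change was 1.91 ± 0.23 (SE, adjusted p = 7.67e-07). Sec61g (ENSMUSG00000078974, chromosome 11 of GRCm38, 16500530 to 16508484, reverse strand), the gamma subunit that clamps the channel, had 169.9, 174 and 182 CPM in wt and 959.8, 527 and 1257 in Tks5+/- LFs. The rise was 5.21-fold, a log2 fold change of 2.38 ± 0.26 (SE, adjusted p = 3.19e-07), and 1.72 after correction for transcript length and GC content. Within a library the ratio of Sec61b to Sec61a1 counts needs no scaling, and it was 0.142 to 0.281 in wt and 1.04 to 1.72 in Tks5+/- libraries. The ratio of Sec61g to Sec61a1 counts was 0.264 to 0.330 in wt and 1.61 to 3.37 in Tks5+/- libraries. These ratios were chosen after the values were seen and carry no test. They are not corrected for transcript length, and the longest transcript has 723 bases in Sec61b and 3172 in Sec61a1. After correction for length the log2 fold change of Sec61b was 1.23. Counts of near-identical copies are not part of these ratios.

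Reads of 2 of these subunits can belong to near-identical copies. The last 300 bases of Sec61g share stretches of 50 bases with 4 other annotated genes, of which Gm10177 had 421, 464, 754, 824, 1482 and 1194 counts in the 6 libraries, and Gm10177 was itself higher by 1.27 (log2, adjusted p = 0.000105). Tks5+/- replicate 2 had the lowest Sec61g and the highest Gm10177 value of the 3 Tks5+/- libraries. With the counts of all copies added, an alternative chosen after seeing the data, Sec61g had a log2 fold change of 1.81 (adjusted p = 6.04e-07) and Sec61b, with 3 copies, of 1.83 (adjusted p = 1e-06). Ssr2 shares such stretches with Rtraf, and adding the Rtraf counts gave 1.29 (adjusted p = 2.38e-05). The calls of Sec61g, Sec61b and Ssr2 remained.

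The signal sequence receptor subunits (TRAP complex), which sit beside the channel and aid the entry of some signal sequences, were unequal. Ssr2 had 104, 128 and 125 CPM in wt and 264, 343 and 312 in Tks5+/- LFs, a log2 fold change of 1.36 ± 0.21 (SE, adjusted p = 1.49e-05). Ssr4 had 352, 368 and 366 CPM in wt and 748, 1016 and 829.5 in Tks5+/- LFs, a log2 fold change of 1.25 ± 0.20 (SE, adjusted p = 3.49e-05). For both genes all Tks5+/- libraries lay above all wt libraries. Ssr1 and Ssr3 were not called, at 0.44 (adjusted p = 0.0874) and 0.40 (adjusted p = 0.103), although their CPM did not overlap either. Both were called higher without Tks5+/- replicate 1, with adjusted p = 0.0298 and 0.0315. A test of the difference between subunits was not run.

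The 3 members that are subunits of the signal peptidase, which cuts the signal peptide from the growing chain, were all called higher (background, 22.8%). Spcs1 (ENSMUSG00000021917, chromosome 14 of GRCm38, 30999826 to 31001672, reverse strand), an accessory subunit, had 174, 171 and 156 CPM in wt and 589.9, 798 and 561 in Tks5+/- LFs, a log2 fold change of 1.96 ± 0.21 (SE, adjusted p = 2.57e-07). Spcs2, also accessory, had 71.4, 59.9 and 63.0 CPM in wt and 197, 269 and 236 in Tks5+/- LFs, a log2 fold change of 1.85 ± 0.21 (SE, adjusted p = 4.98e-07). Sec11c, a catalytic subunit, had 83.7, 69.0 and 90.8 CPM in wt and 241, 422 and 276 in Tks5+/- LFs, a log2 fold change of 1.94 ± 0.23 (SE, adjusted p = 9.12e-07). The lowest Tks5+/- library was above the highest wt library for each of them, and the log2 fold changes with each library left out in turn ran from 1.82 to 2.10 for Spcs1, from 1.77 to 2.02 for Spcs2 and from 1.70 to 2.16 for Sec11c.

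**Figure D2:**
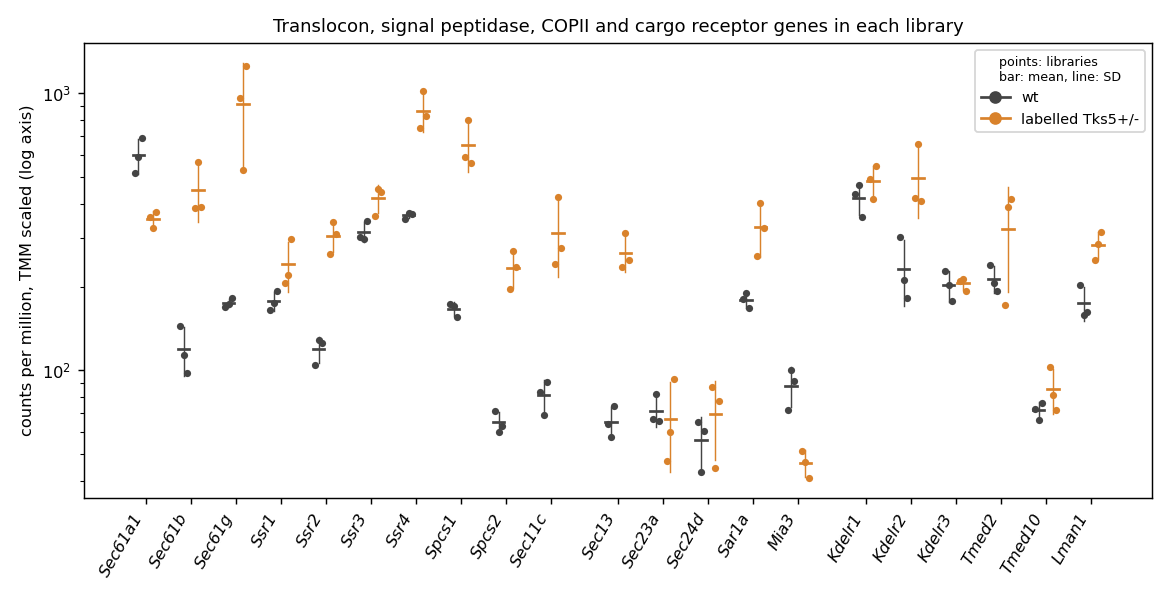
CPM (log axis) of the translocon, signal peptidase, COPII and cargo receptor genes, with a point for each library, the mean of 3 as a bar and the SD as a line. All Tks5+/- points lie above all wt points for Sec61b, Sec61g, Ssr1, Ssr2, Ssr3, Ssr4, Spcs1, Spcs2, Sec11c, Sec13, Sar1a, Kdelr2 and Lman1. All Tks5+/- points lie below all wt points for Sec61a1 and Mia3.

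Of the 5 genes of the COPII coat and its export factors 2 were called higher (background, 22.8%) and 1 lower (background, 22.1%). Sec13, which forms the outer cage of the coat with Sec31 (ENSMUSG00000030298, chromosome 6 of GRCm38, 113728062 to 113740743, reverse strand), had 63.7, 57.3 and 74.2 CPM in wt and 237, 312 and 249 in Tks5+/- LFs. Its log2 fold change was 2.03 ± 0.21 (SE, adjusted p = 1.9e-07), and the genotypes did not overlap. Sar1a, the GTPase that starts coat assembly, had 180.2, 190.5 and 168 CPM in wt and 258, 401 and 325 in Tks5+/- LFs, a log2 fold change of 0.87 ± 0.21 (SE, adjusted p = 0.00175). With library totals alone as scaling the value for Sar1a was 0.44, and in the normalized table of the authors 0.46. Sar1a was not called in these 2 settings. Mia3, also known as TANGO1, which loads bulky cargo such as procollagen into COPII carriers, had 72.1, 101 and 91.2 CPM in wt and 51.03, 46.8 and 40.9 in Tks5+/- LFs. It was called lower, at -0.93 ± 0.22 (SE, adjusted p = 0.0015), with every Tks5+/- library below every wt library. The inner coat genes Sec23a and Sec24d, which gather cargo, were not called, with values of -0.096 and 0.31 and 95% intervals of -0.59 to 0.40 and -0.20 to 0.83.

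Of the 6 cargo and retrieval receptors 2 were called, both higher (background, 22.8%). Kdelr2, a KDEL receptor that returns escaped chaperones to the ER, had 303, 212 and 182 CPM in wt and 420.3, 654 and 407 in Tks5+/- LFs, a log2 fold change of 1.09 ± 0.24 (SE, adjusted p = 0.000709). After correction for transcript length and GC content its value was 0.52 and it was no longer called. Kdelr1 and Kdelr3, the other two KDEL receptors, were not called, at 0.20 (95% interval -0.22 to 0.62) and 0.022 (95% interval -0.39 to 0.43). Kdelr3 overlaps Ddx17 on the opposite strand, and the counts of Ddx17 were between 1.04 and 1.15 times those of Kdelr3 in each library, so that without a stated strand setting the reads of Kdelr3 are uncertain. Lman1, the lectin ERGIC-53 that carries glycoproteins out of the ER, had 203, 159 and 162 CPM in wt and 251, 286 and 315 in Tks5+/- LFs, a log2 fold change of 0.70 ± 0.20 (SE, adjusted p = 0.00697). Without wt replicate 2 the adjusted p of Lman1 was 0.0546. With library totals alone as scaling its value was 0.28, and in the normalized table of the authors 0.36. Lman1 was not called in any of these settings. The p24 cargo receptors Tmed2 and Tmed10 were not called, at 0.60 and 0.25. Without Tks5+/- replicate 1, whose Tmed2 level was below all wt values, Tmed2 was called at 0.96 (adjusted p = 0.00104).

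Of 11 chaperones 4 were called lower (background, 22.1%), 2 higher (background, 22.8%) and 5 not called. Group counts of this size cannot be told from the background. Hspa5, which encodes BiP, the master HSP70 chaperone of the ER and the most used marker of ER stress (ENSMUSG00000026864, chromosome 2 of GRCm38, 34771970 to 34777547, forward strand), had 4101, 4412 and 3836 CPM in the wt libraries 1, 2 and 3 and 2426, 3757 and 3828 in the Tks5+/- libraries 1, 2 and 3. Each Tks5+/- value was below each wt value, the nearest pair being wt replicate 3 and Tks5+/- replicate 3, and the gene was not called, at -0.30 ± 0.22 (SE, adjusted p = 0.269), with a 95% interval of -0.75 to 0.15. Scaling by library totals alone gave -0.74 and the authors' normalized table gave -1.02, both called lower. Hsp90b1, encoding GRP94, the HSP90 of the ER, was not called either, at -0.40 ± 0.20 (SE, adjusted p = 0.108), but was called lower with library totals alone (-0.82), in the authors' normalized table (-0.81) and after correction for transcript length and GC content (-0.65). Calr, the soluble lectin chaperone calreticulin, had 535, 801 and 613 CPM in wt and 854, 455 and 741 in Tks5+/- LFs. Those ranges overlapped, and the log2 fold change was 0.074 ± 0.23 (SE, adjusted p = 0.82) with a 95% interval of -0.41 to 0.56, its sign turning under scaling by library totals alone (-0.33).

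Canx (ENSMUSG00000020368, chromosome 11 of GRCm38, 50293961 to 50325673, reverse strand), the membrane-bound lectin chaperone calnexin, had 489, 485 and 416 CPM in wt and 231, 197 and 251 in Tks5+/- LFs. It was called lower, at -1.03 ± 0.20 (SE, adjusted p = 0.000249), and no Tks5+/- library reached the lowest wt library. Hyou1, the large HSP110 family chaperone that exchanges nucleotide on BiP, had 45.7, 53.0 and 44.9 CPM in wt and 23.6, 18.7 and 20.5 in Tks5+/- LFs, a log2 fold change of -1.19 ± 0.24 (SE, adjusted p = 0.000414). Manf, a small secreted ER protein raised by ER stress, had 216, 306 and 257 CPM in wt and 564, 636 and 859 in Tks5+/- LFs. It was called higher, at 1.40 ± 0.22 (SE, adjusted p = 2.3e-05), the opposite direction from Hyou1. Both genes were called with each library left out.

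The J-domain cochaperones of BiP had weaker evidence. Dnajb11 had 74.7, 66.4 and 78.2 CPM in wt and 61.5, 46.8 and 32.8 in Tks5+/- LFs, a log2 fold change of -0.64 ± 0.24 (SE, adjusted p = 0.0303). The call was lost on leaving out wt replicate 1 (adjusted p = 0.066), wt replicate 3 (0.0816), Tks5+/- replicate 2 (0.074) or Tks5+/- replicate 3 (0.198). Dnajc3, which also inhibits PERK, had 95.3, 125 and 108 CPM in wt and 62.0, 54.4 and 89.0 in Tks5+/- LFs, a log2 fold change of -0.67 ± 0.22 (SE, adjusted p = 0.0175). Its call ended without wt replicate 2 (adjusted p = 0.0939), Tks5+/- replicate 1 (0.0776) or Tks5+/- replicate 2 (0.111), and after correction for transcript length, at -0.35. Dnajb9, a target of XBP1 that leads substrates to degradation, had 39.9, 23.0 and 24.5 CPM in wt and 33.5, 56.2 and 52.7 in Tks5+/- LFs. This was the only called member whose genotypes overlapped, wt replicate 1 lying above Tks5+/- replicate 1, with a log2 fold change of 0.72 ± 0.27 (SE, adjusted p = 0.0323). Its call ended without wt replicate 2 (adjusted p = 0.145), wt replicate 3 (0.113), Tks5+/- replicate 2 (0.109) or Tks5+/- replicate 3 (0.0882). It also ended in DESeq2 (adjusted p = 0.0507) and after correction for transcript length and GC content, at 0.20. Sdf2l1 and Creld2, small genes raised by ER stress, had at most 41 and 31 counts in any library and values of -0.12 and -0.12, both not called.

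Several of these genes share the ER stress response element (ERSE), the letters CCAAT and CCACG 9 bases apart, which ATF6 and XBP1 are known to use with NF-Y. The letters were searched on both strands of RefSeq promoter windows of build GRCm38.p6, from 250 bases before to 50 after each start. The element was in 7 of the 35 members with a window, Calr, Canx, Creld2, Dnajc3, Hsp90b1, Hspa5 and Pdia6, and in 37 of 27025 genes, or 0.137%. Of these 7, Pdia6 was called higher (background over all genes tested, 22.8%), Canx and Dnajc3 lower (background, 22.1%), and 4 were not called. Counts this small cannot be told from the background, and the Dnajc3 call was among those lost on leaving out single libraries. The related ERSE-II, ATTGG and CCACG with 1 base between them, was in Dnajb11 and Herpud1 and in 12 genes, or 0.0444%. The 8 letters TGACGTGG of the UPR element were in Kdelr3, Sec23a and Sec24d and in 193 genes, or 0.714%. The 250 bases before the start of 4 ERSE members are printed to show the shared letters, in capitals, in genes with unlike calls. Hspa5 (not called) is chr2:34771840-34772089 on the forward strand, Pdia6 (called higher) chr12:17266339-17266588 forward, Canx (called lower) chr11:50325674-50325923 reverse and Dnajc3 (called lower) chr14:118937682-118937931 forward.
Hspa5: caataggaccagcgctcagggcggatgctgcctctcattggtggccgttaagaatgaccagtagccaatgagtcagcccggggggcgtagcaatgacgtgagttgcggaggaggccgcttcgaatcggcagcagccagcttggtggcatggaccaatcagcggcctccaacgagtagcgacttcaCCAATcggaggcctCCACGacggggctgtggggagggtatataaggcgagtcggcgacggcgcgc
Pdia6: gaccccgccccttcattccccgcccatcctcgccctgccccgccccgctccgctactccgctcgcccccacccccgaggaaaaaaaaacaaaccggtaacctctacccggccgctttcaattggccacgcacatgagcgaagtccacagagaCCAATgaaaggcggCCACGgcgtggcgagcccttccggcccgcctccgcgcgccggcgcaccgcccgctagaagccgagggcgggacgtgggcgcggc
Canx: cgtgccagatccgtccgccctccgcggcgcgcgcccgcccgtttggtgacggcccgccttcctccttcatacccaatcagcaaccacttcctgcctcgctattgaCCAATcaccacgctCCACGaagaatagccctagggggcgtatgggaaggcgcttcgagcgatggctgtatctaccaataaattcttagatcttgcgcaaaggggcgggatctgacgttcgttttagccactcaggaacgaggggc
Dnajc3: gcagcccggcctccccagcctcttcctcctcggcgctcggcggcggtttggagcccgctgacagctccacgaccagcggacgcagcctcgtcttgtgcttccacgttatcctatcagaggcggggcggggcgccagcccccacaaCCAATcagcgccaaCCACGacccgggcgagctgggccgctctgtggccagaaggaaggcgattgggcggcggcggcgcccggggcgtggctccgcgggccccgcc
The first letter of the element stood 65 bases before the start in Hspa5, 98 in Pdia6, 145 in Canx and 105 in Dnajc3. A match of letters is a description of the window and not a measured binding site.

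The isomerases form disulfide bonds or turn proline bonds in the growing chain. Of the 5 tested 2 were called lower (background, 22.1%) and 2 higher (background, 22.8%). Pdia6 (ENSMUSG00000020571, chromosome 12 of GRCm38, 17266545 to 17284770, forward strand), a disulfide isomerase that works with BiP, had 396, 355 and 436 CPM in wt and 819, 1131 and 1326 in Tks5+/- LFs. It was called higher, at 1.46 ± 0.22 (SE, adjusted p = 1.29e-05), the lowest Tks5+/- library being above the highest wt library. Pdia3 (ENSMUSG00000027248, chromosome 2 of GRCm38, 121413775 to 121438687, forward strand), the isomerase that works with calnexin and calreticulin on glycoproteins, had 127, 108 and 139.8 CPM in wt and 56.5, 72.0 and 62.9 in Tks5+/- LFs. It was called lower, at -0.97 ± 0.21 (SE, adjusted p = 0.000723), again without overlap. The ratio of Pdia6 to Pdia3 counts within a library was 3.12 to 3.30 in wt and 14.5 to 21.1 in Tks5+/- libraries. This ratio was also chosen after the values were seen and carries no test. P4hb, which is both a disulfide isomerase and the beta subunit of the collagen prolyl 4-hydroxylase, had 618, 687 and 677 CPM in wt and 734, 731 and 739 in Tks5+/- LFs. The difference was small, at 0.15 ± 0.19 (SE, adjusted p = 0.543) with a 95% interval of -0.25 to 0.56, and its sign turned under scaling by library totals alone (-0.27).

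The prolyl isomerases that act on procollagen went opposite ways. Fkbp10, encoding FKBP65, whose loss causes brittle bone disease, had 192, 234 and 318 CPM in wt and 153, 108 and 122 in Tks5+/- LFs, a log2 fold change of -0.96 ± 0.22 (SE, adjusted p = 0.00128). Ppib, cyclophilin B, had 106, 66.4 and 53.0 CPM in wt and 139, 148 and 110.0 in Tks5+/- LFs, a log2 fold change of 0.83 ± 0.24 (SE, adjusted p = 0.00726). In both genes the genotypes were apart. The counts of Snx22, which overlaps Ppib on the opposite strand, were between 1.09 and 1.32 times those of Ppib in each library, so that the reads of Ppib are uncertain. With library totals alone as scaling Ppib was at 0.41 and not called.

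Of the genes that sense and relay ER stress, Xbp1 rose and Ern1 fell. Xbp1, the transcription factor whose mRNA is spliced by IRE1 (ENSMUSG00000020484, chromosome 11 of GRCm38, 5520659 to 5525893, forward strand), had 66.3, 68.0 and 60.8 CPM in wt and 131, 121 and 127 in Tks5+/- LFs. The spread within each genotype was small beside the difference between them, and the log2 fold change was 0.96 ± 0.20 (SE, adjusted p = 0.000546). Reads from the 3′ end do not tell the spliced from the unspliced form. Ern1 had 12.2, 15.0 and 11.1 CPM in wt and 7.13, 5.85 and 2.56 in Tks5+/- LFs, from 19, 28, 30, 13, 10 and 5 counts, a log2 fold change of -1.30 ± 0.42 (SE, adjusted p = 0.0138). Its call ended without wt replicate 2 (adjusted p = 0.0642) or Tks5+/- replicate 3 (0.0874) and after correction for transcript length, at -0.82. The sensors Atf6 and Eif2ak3 were not called, at -0.24 (95% interval -0.81 to 0.32) and -0.43 (95% interval -1.31 to 0.44), and the sign for Atf6 turned after correction for transcript length (0.26).

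In ER-associated degradation 1 of 3 members was called lower (background, 22.1%) and 0 higher (background, 22.8%). Sel1l, the adaptor of the HRD1 ubiquitin ligase, had 192, 198 and 117 CPM in wt and 85.6, 68.5 and 86.5 in Tks5+/- LFs. It fell, with a log2 fold change of -1.07 ± 0.23 (SE, adjusted p = 0.000607), and wt replicate 3 was the closest wt library to the Tks5+/- libraries. Herpud1, which recruits substrates to the same ligase, and Edem1, a lectin that extracts misfolded glycoproteins, were not called, at -0.13 (95% interval -0.54 to 0.29) and 0.13 (95% interval -0.35 to 0.62). With library totals alone as scaling Herpud1 was called lower, at -0.55 (adjusted p = 0.0328).

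**Figure D3:**
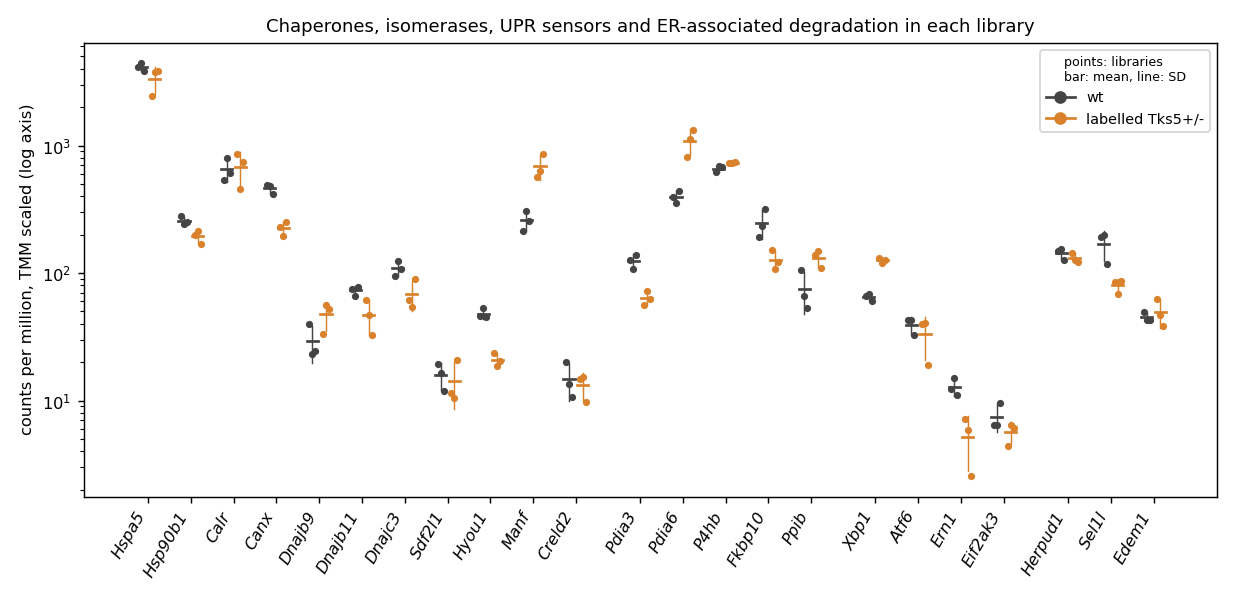
CPM (log axis) of chaperones, isomerases, UPR sensors and degradation genes, with a point for each library, the mean of 3 as a bar and the SD as a line. The Hspa5 points of the genotypes nearly touch, Manf, Pdia6 and Xbp1 are higher in Tks5+/-, and Canx, Hyou1, Pdia3 and Sel1l are lower.

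Transcript length moved with these results. Over the 10339 tested genes with a length, that of the longest annotated transcript, the log2 fold change ran with length, with a Spearman coefficient of -0.40 across genes, which are not independent replicates. The genes were split by length into 5 classes of equal size. In the shortest class, up to 1631 bases, the median log2 fold change was 0.65, and in the longest class, from 5145 bases, it was -0.53. In the shortest class 4 of 8 members were called higher and 0 lower, where 47.6% of genes were called higher and 7.79% lower. The second class held 13 members, 8 higher and 2 lower, beside 29.2% and 17.7% of all genes. The middle class held 10 members, 2 higher and 3 lower, beside 18.3% and 20.997%. In the fourth class 2 of 8 members were higher and 3 lower, beside 12.9% and 26.5%, and in the longest class 0 of 5 were higher and 2 lower, beside 5.80% and 37.5%. The longest annotated transcript need not be the one read at its 3′ end, so the class of a single member is uncertain.

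**Figure D4:**
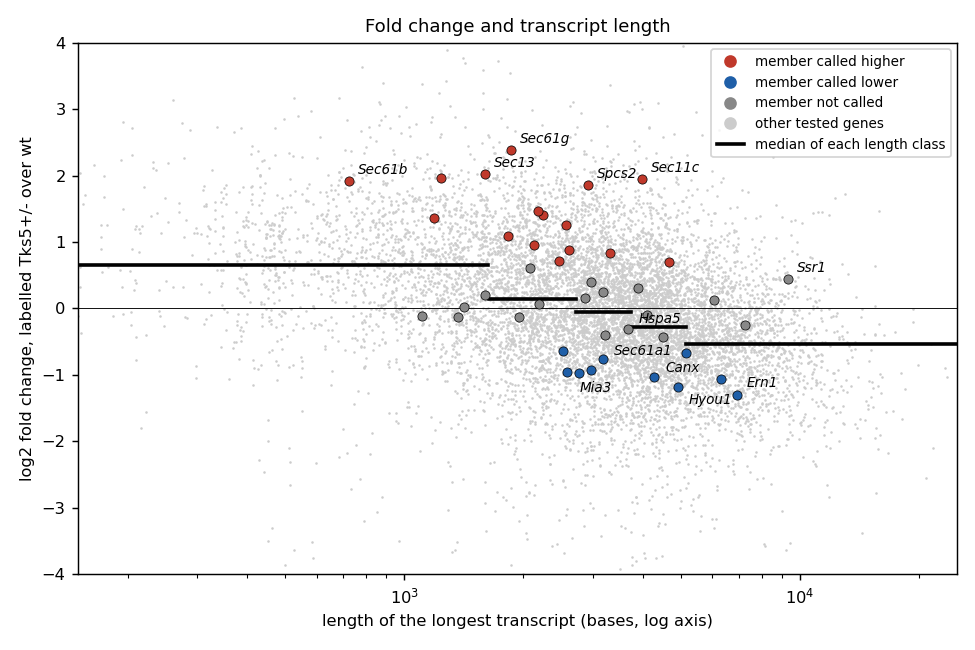
Log2 fold change (libraries labelled Tks5+/- over wt) against the length of the longest transcript (log axis) for tested genes, with the members in colour by call and the median of each length class as a black line. The medians fall from 0.65 to -0.53, and 199 of the 10339 genes lie outside the axes.

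After each library was corrected for its trend with length, 8 members were called lower (background, 19.3%) and 16 higher (background, 19.7%). Dnajb9, Dnajc3 and Ern1 were no longer called, and Ssr1, whose longest transcript has 9333 bases, was called higher at 1.09. Correction for length and GC content together left 9 members lower (background, 18.0%) and 15 higher (background, 18.3%). The 7 called translocon and signal peptidase genes were called under both corrections, with log2 fold changes from 1.03 to 1.96 after the joint correction, and Sec61a1 was called lower under both, at -0.74 and -0.54. The part of transcript length in these results was not tested beyond these corrections.

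**Figure D5:**
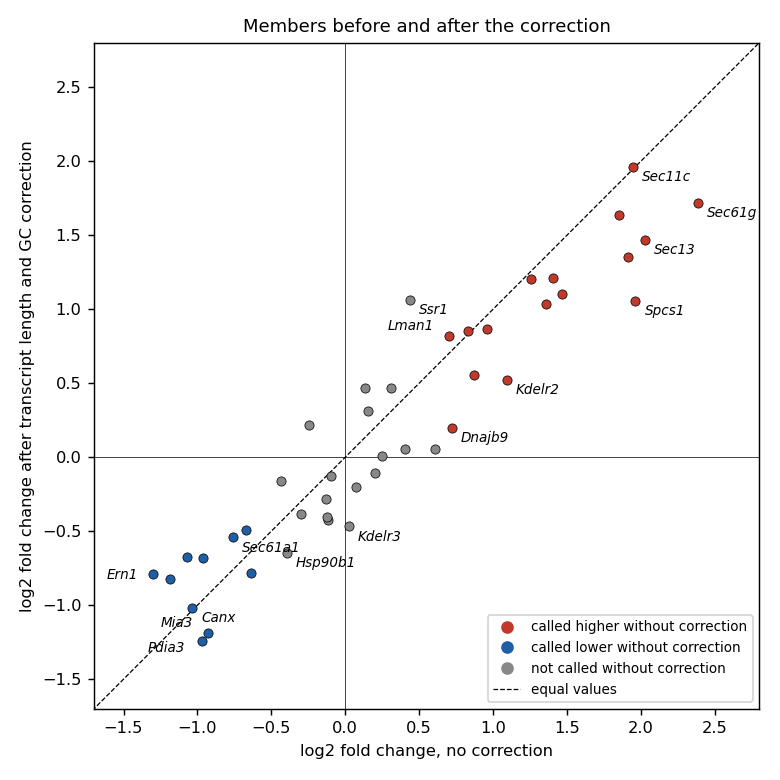
Log2 fold change of the 44 tested members without correction (horizontal axis) and after correction for transcript length and GC content (vertical axis), coloured by the call without correction, with equal values on the dashed line. Sec11c goes from 1.94 to 1.96, Spcs1 goes from 1.96 to 1.05 and Ssr1 from 0.44 to 1.06.

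The balance of rises and falls moved with the scaling. With library totals alone, without TMM factors, the median over all genes of the log2 fold change moved from -0.046 to -0.47 and that of the members from 0.18 to -0.24, with 13 members lower (background under this scaling, 38.1%) and 12 higher (background, 13.2%). The members' median stayed above that of all genes under both scalings. No called member changed sign under any of the alternatives tried, and 18 of the 26 stayed called under all of them.

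The other genes of the pathway, 175 genes in 4 lists, also moved in both directions, with 35 of 169 tested genes called lower, 20.7% beside a background of 22.1%, and 50 higher, 29.6% beside a background of 22.8%. The same backgrounds apply to the 4 lists, whose shares were 15.0% to 28.9% lower and 19.4% to 37.1% higher. Among 38 tested genes of ER folding 11 fell and 10 rose. The 4 falls with the smallest adjusted p were Prkcsh, the beta subunit of glucosidase II (-1.48), Uggt1, the sensor of misfolded glycoproteins (-1.26), the calcium binding protein gene Nucb2 (-1.39) and Rcn3, of the CREC family (-1.03). The rises were led by Selenof, a selenoprotein that binds Uggt1 (2.62), the cyclophilin gene Ppic (1.91), Calu, which encodes calumenin (2.11), and Cnpy2 (1.48). Uggt1 and Selenof, whose products bind each other, were thus called in opposite directions.

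Of 36 tested genes of the UPR and ER-associated degradation 7 fell and 7 rose. Falls were led by Creb3l2, a transcription factor cleaved on the way out of the ER that drives secretory genes (-1.26), the ubiquitin ligase gene Stub1 (-1.10), Nploc4, a cofactor of the p97 segregase (-1.04), and Mbtps1, the protease that cuts ATF6 (-0.68). Rises were led by the selenoprotein gene Selenok (1.96), the ligase gene Rnf5 (1.93), Ube2g2, a ubiquitin-conjugating enzyme of ER degradation (1.26), and Selenos (1.29). Mbtps1 and Selenos were not called after correction for length and GC content, at -0.19 and 0.47.

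In translocation and glycosylation 8 of 35 tested genes fell and 13 rose. Sec62 (-1.52) and Sec63 (-1.14), which help post-translational entry through Sec61, fell together with Emc1 (-1.16) and Emc3 (-0.81) of the ER membrane protein complex. The rises were led by 3 protein subunits of the signal recognition particle, Srp14 (2.01), Srp19 (1.87) and Srp9 (2.00), and by Tusc3 (1.81), a subunit of the oligosaccharyltransferase. Factors of entry into the ER were thus called in both directions, as were the Sec61 subunits.

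The list of ER to Golgi transport held 60 tested genes, 9 lower and 20 higher. Falls were led by the p24 gene Tmed5 (-1.64), Gbf1, the exchange factor of Arf1 (-1.17), Preb, which encodes the exchange factor of Sar1 (-1.10), and Yif1b (-0.87). Rises were led by the GTPase gene Arf4 (1.40), the tether subunit gene Trappc4 (1.28), the SNARE gene Bet1 (1.79) and Mcfd2, the partner of Lman1 in carrying coagulation factors (1.32). Preb and Sar1a, an exchange factor and its GTPase, were called in opposite directions, and Gbf1 and Preb were not called after correction for length and GC content, at -0.65 and -0.62. With library totals alone 66 of the 169 genes were lower and 28 higher, beside backgrounds of 38.1% and 13.2%.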

How the data were processed

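RNA of TGFβ-treated LFs was measured in 6 Quant-Seq libraries, 3 per genotype. The authors deposited raw counts, made by trimming with Trim Galore, aligning to GRCm38 with HISAT2 and then Bowtie2, counting reads on annotated 3′ ends extended by 50 bases with metaseqR2 and summing per gene. Whether the counting kept to 1 strand is not given in the sources used here. The deposited normalized table, used here as a score, was made by the authors with EDASeq and rounded. The 6 raw count files were the base of the main comparison, with 1344507, 1647200 and 2369882 counts in wt and 1979084, 2110954 and 2329155 in Tks5+/- libraries.

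Genes were matched to symbols, coordinates and transcripts of GENCODE release M21 (55104 of 55364), promoters to RefSeq. In R 4.3.3, genes kept by filterByExpr were scaled by TMM and tested with edgeR 4.0.16 (robust quasi-likelihood F test, Benjamini-Hochberg adjustment over 10346 genes). Intervals are 95% and come from the fit. Exact permutation tests, two-sided, were run on the CPM of each member. The fit was also run on simulated counts with far fewer changed genes than were called here and the same dispersion for every gene. That run does not measure the rate of false calls in these data.

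The members and lists were chosen with earlier results of these data known. Named were all members, by role, with the value in every library for each called member and for Hspa5, Calr, Xbp1, Ppib and P4hb, the 4 called genes of smallest adjusted p per direction in each of 4 pathway lists, markers at 0, and Sh3pxd2a. Other genes named overlap or resemble a member, or are cell type markers above 0, named after their values were seen. Alternatives were DESeq2 1.42.0, limma-voom and the normalized table with limma 3.58.1 (pseudocount 1), RLE, upper-quartile and library total scaling, no filter, at least 10 counts in every library, corrections for transcript length and GC content (loess, span 0.5), the replicate block, other fold change thresholds and each library left out. Adding the counts of near-identical copies, genes sharing at least 20 stretches of 50 bases with the last 300 of a member, was chosen after seeing the data. Tables and plots used Python 3.11.15 with matplotlib 3.10.9.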

Additional observations from a re-analysis of the deposited data

How the results depend on the processing

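Members called lower numbered 8 to 13 and higher 12 to 19 over all alternatives, while the genes called in all ran from 3705 to 5306. The 13 lower and the 12 higher came with library totals alone, where the backgrounds were 38.1% and 13.2%. Each library left out in turn gave 8 to 9 members lower and 14 to 19 higher, beside 3853 to 4595 genes called in all. For the other pathway genes library totals alone moved the counts to 66 lower and 28 higher, beside the same backgrounds of 38.1% and 13.2%. Leaving out each library gave 26 to 31 lower and 39 to 52 higher. Of 623 values for called members under the alternatives 586 kept direction and call, 37 lost the call and 0 changed sign. Of 431 values for uncalled members 15 gained a call and 56 changed sign without one, and the cause was not tested. Those that changed sign were, with library totals alone, Calr (-0.33), P4hb (-0.27), Edem1 (-0.28), Ssr3 (-0.024), Sec24d (-0.095), Kdelr1 (-0.21), Kdelr3 (-0.40) and Tmed10 (-0.16), and with the authors' normalized table Calr (-0.52), Sdf2l1 (0.031), Creld2 (0.13), P4hb (-0.37), Ssr3 (-0.036), Kdelr1 (-0.30) and Kdelr3 (-0.23). Correction for transcript length turned Calr (-0.086), Atf6 (0.26), Sec23a (0.096), Kdelr1 (-0.13) and Kdelr3 (-0.38), for GC content Sdf2l1 (0.088), Creld2 (0.0021) and Kdelr3 (-0.0036), and for both Calr (-0.20), Atf6 (0.22), Kdelr1 (-0.10) and Kdelr3 (-0.47). Upper-quartile scaling turned Kdelr3 (-0.012) and the filter of at least 10 counts Kdelr3 (-0.032). Without single libraries the values ran from -0.067 to 0.32 for Calr, -0.47 to 0.093 for Sdf2l1, -0.33 to 0.14 for Creld2, -0.38 to 0.077 for Atf6, -0.023 to 0.32 for Edem1, -0.38 to 0.15 for Sec23a and -0.073 to 0.12 for Kdelr3.

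The labels do not say whether the replicate numbers pair the samples, and no pairing was seen. Same-numbered libraries deviated from their group means with correlations of -0.0011, -0.067 and 0.089 for replicates 1, 2 and 3, and not every library correlated best with its own number. Deviations from means of so few libraries carry much counting noise, so these values cannot exclude a pairing. With the replicate number as a replicate block 10 members were called lower and 16 higher, and 4668 genes in all. The replicate block with the length correction turned Calr (-0.11), Atf6 (0.21), Sec23a (0.059), Kdelr1 (-0.13) and Kdelr3 (-0.38), with the GC correction Calr (-0.023), Sdf2l1 (0.066) and Edem1 (-0.025), and with both Calr (-0.23), Atf6 (0.16), Kdelr1 (-0.11), Kdelr3 (-0.46), Tmed2 (-0.0052) and Tmed10 (-0.018). Depth limits the low genes, since Pdia4 could not be tested and Ern1, Eif2ak3, Sdf2l1 and Creld2 had few counts.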
